A study of Triticum aestivum with 16 samples.

Results

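The 200 brightest wheat probe sets of the stem arrays are described here, out of 61115 wheat probe sets measured. A probe set is a group of short probes that together report 1 transcript or a family of near-identical transcripts. The members were chosen by their mean log2 intensity over the 16 arrays, so their level is a description and is not tested. The differences among lines, which that mean does not use, were tested. The last member chosen, Ta.1385.4.S1_x_at, had a mean log2 intensity of 12.21, and the first probe set left out, Ta.3788.1.A1_at, had 12.20.

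RNA came from stems of bread wheat (Triticum aestivum) of 8 recombinant inbred lines from the cross of Seri M82 with Babax, called SB3, SB10, SB57, SB62, SB69, SB109, SB165 and SB169. All lines were field-grown without irrigation, and each gave 2 arrays, 1 from each field replicate. A sample pooled 7 to 8 main-tiller stem tops, the top pair of internodes with the leaf sheath still attached, taken at flowering about 2 days after heavy rain. The series title names the question as differences between genotypes in the metabolism of water-soluble carbohydrates. No untreated or parental group was analysed here. Each sample is a pool of stems from 1 plot, so every p-value measures the spread between plots and arrays of a line, and a tissue of several cell types was extracted whole. A smaller share of a cell type and less RNA per cell cannot be told apart in such samples.

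A stem top at flowering holds elongating or recently elongated internode tissue, vascular bundles and fibres with thickening walls, and green leaf sheath. Chloroplasts of green tissue carry large amounts of Rubisco, the enzyme that fixes carbon dioxide, and of the photosystem proteins that power it. Tubulins build the microtubules that guide cellulose deposition in growing walls. S-adenosylhomocysteine hydrolase (SAHH) clears the by-product of methylation reactions, and caffeic acid O-methyltransferase (COMT1) carries out such a reaction in the synthesis of lignin.

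The arrays were alike in overall signal. The median intensity over all wheat probe sets lay between 23.56 and 25.01 on the 16 arrays, and the members' mean log2 intensity lay between 12.93 and 12.99. The number of arrays limits the precision, and no count of molecules stands behind an array value. By the root mean square SD between replicates, SB165 and SB3 had the least alike replicates over all wheat probe sets. It was 0.243 in SB165 and 0.270 in SB3, against 0.154 to 0.192 log2 units in the other 6 lines. Over the members alone it was 0.183 in SB165 and 0.167 in SB3, and SB169 also reached 0.167. By the median SD over all wheat probe sets SB3 was again the widest with 0.131, then SB57 with 0.125, and SB165 had 0.113.

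The members held much of the array's signal although they were a small part of its content. They made up 0.327% of the wheat probe sets and 20.2% ± 0.517 (SD, n = 16 arrays) of the summed intensity, with 18.9% on the lowest array and 21.1% on the highest. Their mean log2 intensities ran from 12.21 to 14.85 with a median of 12.85, against a median of 4.61 over all wheat probe sets. The probes of different sets bind with different strength, so the order of these levels is an order of signal and not of transcript number. The 5 brightest together held 1.41% of the summed intensity.

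The brightest 2 probe sets both report rbcl, the chloroplast gene of the large Rubisco subunit. TaAffx.128414.1.A1_x_at had log2 intensities of 14.83 and 14.81 in SB165, 14.88 and 14.91 in SB169, 14.85 and 14.87 in SB10, 14.87 and 14.86 in SB62, 14.81 and 14.82 in SB109, 14.85 and 14.87 in SB69, 14.80 and 14.93 in SB57 and 14.86 and 14.83 in SB3. Ta.24976.1.S1_x_at had a mean of 14.85 too and ranged from 14.75 to 14.90 over the arrays. The lines overlapped in both, and their line means lay within 0.08 and 0.11 log2 units of each other, or 1.06-fold and 1.08-fold. Next came Ta.2752.3.S1_x_at with a mean of 14.48, Ta.2752.2.S1_x_at with 14.42 and Ta.506.1.S1_a_at with 14.12, none of which is paired with a gene in the tables used. Their line means spanned 0.09, 0.07 and 0.06 log2 units.

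The members' rank differed little between most arrays, which the choice by the mean over the same arrays favours, so these counts are a description. Of the 200 members, 149 were among the 200 brightest on all 16 arrays, and 197 stayed among the 400 brightest on every array. The lowest rank of any member on any array was 823. An array's own 200 brightest held between 172 members (SB3 replicate 2) and 191 members (both SB57 replicates). The lists of the 16 arrays together named 274 probe sets. Choosing on the replicate 1 arrays alone and on the replicate 2 arrays alone gave lists that shared 192 probe sets, 96% of each.

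The members' line means lay closer together than those of other probe sets. The range of line means (highest minus lowest of the 8) had a median of 0.23 log2 units, or 1.17-fold, over the members. It was 0.37, or 1.29-fold, both over all wheat probe sets and over the next 200 in brightness. A range under 0.2 was found in 81 members (40.5%), against 9.5% of the next 200 and 7.66% of all. The ranges widened down the list: the median was 0.14 in the brightest 50, 0.21 in the next 50, 0.26 in the third 50 and 0.30 in the last 50.

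Replicates of a line were also closer together among the members. The median SD between replicates was 0.0902 log2 units, against 0.137 in the next 200 and 0.157 over all wheat probe sets. The share of a member's variance that lay between lines had a median of 26.1%, against 29.98% in the next 200 and 14.05% over all. A range of line means also holds spread between replicates. The narrower range of the members therefore does not by itself show smaller differences between lines. These medians are descriptions without a test, since probe sets are not independent of each other.

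The flattest member was Ta.30727.1.S1_at, with log2 intensities of 13.81 and 13.84 in SB165, 13.88 and 13.84 in SB169, 13.84 and 13.86 in SB10, 13.88 and 13.84 in SB62, 13.81 and 13.85 in SB109, 13.83 and 13.81 in SB69, 13.77 and 13.86 in SB57 and 13.83 and 13.82 in SB3. All 16 values lay within 13.77 and 13.88, and the line means spanned 0.05 log2 units. Ta.506.1.S1_a_at, the fifth brightest, spanned 0.06. The widest ranges belonged to a pair of probe sets of the same cluster. Ta.2789.2.S1_x_at spanned 1.49 log2 units, from 12.99 in SB169 to 11.49 in SB10, and Ta.2789.2.S1_at spanned 1.33, from 13.35 to 12.01 in the same lines. Neither passed limma's F-test, with adjusted p = 0.128 and 0.150. Their replicates lay far apart in SB165 (12.48 and 10.93, 12.89 and 11.44), in SB10 (11.85 and 11.14, 12.38 and 11.64) and in SB109 (12.00 and 12.92, 12.46 and 13.32). TaAffx.129051.1.S1_at, named here after its values were seen, spanned 1.32 (adjusted p = 0.742 by limma), with 10.60 and 13.18 in the replicates of SB169 and 13.35 and 11.28 in those of SB69. The replicates of SB169 thus lay further apart than the highest and the lowest line mean.

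Genes were named for 41 members (20.5%), which belong to 33 genes, against 2.08% of all wheat probe sets. The names come from the platform annotation supplied to GEO, updated through RefSeq's gene table for the assembly IWGSC CS RefSeq v2.1. Of the 41, 19 members of 16 genes carry a descriptive synonym and the others only a locus symbol or a short gene symbol. The 41 had a median range of line means of 0.21 log2 units, close to the 0.23 of all members, and 2 of them differed among lines by limma's F-test. Over all wheat probe sets 3.99% were called by that test and 15.2% had an unadjusted p under 0.05, and the counts for each gene list are set against these shares.

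Photosynthesis genes were the largest of the gene lists among the named members and had narrow ranges over the lines. The list held 7 genes and 37 probe sets, of which 7 probe sets of 5 genes were members and 0 of the 37 passed limma's F-test at an adjusted p under 0.05 (3 had an unadjusted p under 0.05). The median range was 0.11 log2 units over the 7 members and 0.30 over the whole list. Most of the 37 probe sets are paired with rbcl, and many of those were dim, with mean log2 intensities down to 2.34. The count and the median of the whole list therefore mostly describe probe sets of rbcl. Besides rbcl the members were PsbO and PsbP, extrinsic proteins of the oxygen-evolving side of photosystem II, petC, the Rieske iron-sulfur protein of the cytochrome complex between the photosystems, and PRK, the phosphoribulokinase of the Calvin cycle. PsbO (Ta.841.1.S1_a_at) had log2 intensities of 13.44 and 13.30 in SB165, 13.36 and 13.31 in SB169, 13.34 and 13.35 in SB10, 13.42 and 13.38 in SB62, 13.27 and 13.35 in SB109, 13.38 and 13.31 in SB69, 13.41 and 13.37 in SB57 and 13.32 and 13.28 in SB3. petC (Ta.861.1.S1_at) had 13.26 and 13.23 in SB165, 13.30 and 13.27 in SB169, 13.23 and 13.23 in SB10, 13.23 and 13.22 in SB62, 13.22 and 13.21 in SB109, 13.34 and 13.26 in SB69, 13.27 and 13.32 in SB57 and 13.22 and 13.24 in SB3. In both genes the lines overlapped and the line means lay within 0.09 log2 units. PRK (Ta.23158.1.S1_at) averaged 13.24 and spanned 0.22, from 13.34 in SB57 to 13.11 in SB10 (adjusted p = 0.683 by limma). PsbP was measured by Ta.85.1.S1_at with a mean of 13.24 and a range of 0.13, and by TaAffx.120874.1.S1_x_at with 12.30 and 0.21.

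All 5 of these green-tissue genes had a member with log2 intensities above 13 on every array. Stem and leaf sheath were extracted together, so the part of this signal that came from the sheath was not tested. Probe sets paired with rbcl by the annotation differed widely in signal. The 28 of them had mean log2 intensities from 2.34 to 14.85, and only 2 of them were members. Most of the others belong to the cluster TaAffx.128414. Whether the dim probe sets read the rbcl transcript was not tested. Trx-M, a chloroplast thioredoxin, stood just outside the members with a mean of 12.05.

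Tubulins held the named member with the widest range. Of 6 genes and 10 probe sets in the list, 2 probe sets were members, TUBA (an alpha tubulin, Ta.812.1.S1_x_at) and tubb2 (a beta tubulin, Ta.1544.1.S1_at). Limma's F-test called 2 of the 10, tubb2 and a dimmer TUBA probe set, Ta.723.1.S1_at, which is not a member, and 7 of the 10 had an unadjusted p under 0.05. tubb2 had log2 intensities of 12.15 and 12.84 in SB165, 12.07 and 12.17 in SB169, 13.03 and 13.18 in SB10, 12.11 and 12.14 in SB62, 12.42 and 12.20 in SB109, 12.71 and 12.95 in SB69, 12.25 and 12.48 in SB57 and 12.76 and 13.09 in SB3. SB10 was high in both replicates, SB3 replicate 2 reached above the lower SB10 array, and SB169 and SB62 were low. The line means lay 0.99 log2 units, or 1.98-fold, apart (adjusted p = 0.0125 by limma). TUBA had 12.51 and 12.86 in SB165, 12.41 and 12.48 in SB169, 12.89 and 12.93 in SB10, 12.64 and 12.63 in SB62, 12.61 and 12.75 in SB109, 12.72 and 12.92 in SB69, 12.53 and 12.56 in SB57 and 12.47 and 12.92 in SB3. SB10 was again the highest line and SB169 the lowest, the range was 0.46 and the F-test was not passed (adjusted p = 0.452 by limma).

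All 10 tubulin probe sets had their highest line mean in SB10, and the same held after quantile normalization and after centring on array medians. SB169 was the lowest line in 8 of the 10. Several of these probe sets may bind transcripts of more than 1 tubulin gene, so the 10 are not 10 separate observations. Over all wheat probe sets SB10 was the highest line in 10.2%, and over the members in 11.0%.

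SAHH and COMT1, of the methyl cycle and of lignin synthesis, showed a like order of lines. This list was not among those planned, so its counts are a description. All 3 probe sets of the list were members, and all 3 were highest in SB10 under each scaling tried. Limma's F-test was passed by 1 (all 3 had an unadjusted p under 0.05). The SAHH probe set Ta.1258.2.S1_x_at had log2 intensities of 12.45 and 13.09 in SB165, 12.32 and 12.48 in SB169, 13.02 and 13.16 in SB10, 12.38 and 11.95 in SB62, 13.00 and 12.72 in SB109, 12.78 and 13.08 in SB69, 12.10 and 12.24 in SB57 and 12.75 and 13.19 in SB3. SB10, SB3 and SB69 were high and SB57 and SB62 low, with line means 0.93 log2 units, or 1.91-fold, apart (adjusted p = 0.0331 by limma). The call is lost in 8 of the 16 fits that leave out 1 array, among them those without either SB10 array, and also after centring on array medians, without the intensity trend and with a robust prior (adjusted p up to 0.107 by limma over all these). The other SAHH probe set, Ta.1258.1.S1_a_at, had 12.87 and 13.50 in SB165, 12.82 and 13.03 in SB169, 13.45 and 13.53 in SB10, 12.95 and 12.78 in SB62, 13.38 and 13.20 in SB109, 13.33 and 13.51 in SB69, 12.71 and 12.82 in SB57 and 13.27 and 13.56 in SB3. Its range was 1.64-fold, with adjusted p = 0.0585 by limma. COMT1 (Ta.336.1.S1_x_at) had 12.51 and 12.92 in SB165, 12.57 and 12.51 in SB169, 12.98 and 13.04 in SB10, 12.39 and 12.28 in SB62, 12.81 and 12.66 in SB109, 12.75 and 12.94 in SB69, 12.23 and 12.51 in SB57 and 12.71 and 13.06 in SB3. Its range was 1.596-fold, with adjusted p = 0.0633 by limma. In all 3, SB165 replicate 2 lay far above SB165 replicate 1 and close to the SB10 arrays.

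Carbohydrate, translation and other named members were steadier. Pgk-1, the phosphoglycerate kinase of glycolysis and the Calvin cycle (Ta.2307.1.S1_at), was the only member among the 7 carbohydrate probe sets, and 0 of the 7 passed limma's F-test after adjustment (3 had an unadjusted p under 0.05). Pgk-1 had log2 intensities of 13.18 and 13.21 in SB165, 13.08 and 13.06 in SB169, 12.98 and 13.01 in SB10, 13.10 and 13.12 in SB62, 13.12 and 13.09 in SB109, 13.18 and 13.13 in SB69, 13.13 and 13.13 in SB57 and 13.11 and 12.97 in SB3, a range of 0.20 (adjusted p = 0.699 by limma). The fructan exohydrolase 1-FEH, which breaks down the main stored stem carbohydrate, had a mean of 10.94 and was not a member. TEF1, a translation elongation factor (Ta.659.2.S1_x_at), was the only member among 8 translation probe sets, at 12.56 with a range of 0.34. Limma's F-test called 0 of these 8 (1 at an unadjusted p under 0.05). None of the 18 histone probe sets was a member, the brightest had a mean of 6.95, and limma's F-test called 0 of them (8 at an unadjusted p under 0.05).

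LTP3, a lipid transfer protein of the kind found in outer cell layers of plants, had 1 member and 1 other probe set with very different behaviour. The member Ta.1282.1.S1_x_at averaged 12.43 and spanned 0.33 log2 units, from 12.61 in SB62 to 12.28 in SB109 (adjusted p = 0.638 by limma). The other, Ta.1282.4.S1_at, averaged 7.66 and spanned 4.26, highest in SB10 and lowest in SB165 (adjusted p = 2.98e-08 by limma). CAT1, a catalase that breaks down hydrogen peroxide (Ta.442.1.S1_at), had 12.75 and 12.36 in SB165, 12.58 and 12.52 in SB169, 12.45 and 12.26 in SB10, 12.68 and 12.66 in SB62, 12.51 and 12.58 in SB109, 12.62 and 12.51 in SB69, 12.64 and 12.61 in SB57 and 12.38 and 12.25 in SB3. SB3 and SB10 were low and SB62 and SB57 high, within a range of 0.36 that did not pass the test (adjusted p = 0.435 by limma). TCTP, the translationally controlled tumour protein homologue (Ta.1310.1.S1_x_at), averaged 12.66 with a range of 0.28. Profilin (Ta.5057.3.A1_at), an actin-binding protein, averaged 12.74 with a range of 0.18. TSA (Ta.28714.1.S1_at) averaged 12.75 with a range of 0.16.

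The F-test of limma, adjusted by Benjamini-Hochberg over all 61115 probe sets, found 8 of the 200 members to differ among the 8 lines (4%), against 3.99% of all wheat probe sets called at an adjusted p under 0.05. In this fit the members' share is close to that of all. With the replicate number as a block, larger shares of the members and of all probe sets were called, as given in the closing section. By limma the calls were 0 in the brightest 50 (2 at an unadjusted p under 0.05), 2 in the next 50, 2 in the third 50 and 4 in the last 50. The next 200 outside the members held 22 (11%). An unadjusted p under 0.05 was found in 30 members (15%), against 15.2% of all. Line means at least 2-fold apart as well were found in 1 member (0.5%), against 2.76% of all. The counts that follow, from fits that leave out 1 array, stand without the share of all wheat probe sets called in the same fit. Their changes are therefore not read as a trait of the members. Leaving out 1 array moved the count of 8 to 1 without SB10 replicate 2, to 3 without SB10 replicate 1, SB169 replicate 1, SB62 replicate 2 or SB57 replicate 1, and to 4 without SB169 replicate 2, SB62 replicate 1 or SB69 replicate 2. It became 5 without SB109 replicate 2 or SB57 replicate 2, 14 without either SB165 array and 16 without SB3 replicate 1. The 1 member past 2-fold became 0 without SB10 replicate 2, SB62 replicate 2 or SB57 replicate 1. It became 2 without SB169 replicate 2, SB62 replicate 1 or SB3 replicate 1, and 3 without either SB165 array.

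Of the 8, 7 were highest in SB10 and 1 in SB165, and 4 each were lowest in SB169 and in SB62. Over all wheat probe sets, called or not, SB10 was highest in 10.2%, SB169 lowest in 9.59% and SB62 lowest in 10.1%. The shares among all called probe sets are not given here. The 8 are not separate observations, since 6 of them are much alike, as described below. tubb2 and SAHH are described above. The other 6 are unnamed in the tables used.

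Ta.5227.2.S1_at had the widest range of the 8, 1.11 log2 units or 2.15-fold (adjusted p = 0.0172 by limma). Its log2 intensities were 11.93 and 12.66 in SB165, 11.87 and 11.92 in SB169, 12.72 and 12.76 in SB10, 11.73 and 11.53 in SB62, 12.41 and 12.14 in SB109, 12.40 and 12.76 in SB69, 11.71 and 11.91 in SB57 and 12.34 and 12.76 in SB3. SB10 was high in both replicates but overlapped with SB3 replicate 2 and SB69 replicate 2, and SB62 and SB57 were low. Ta.812.4.S1_at, of the cluster that holds TUBA, had 12.29 and 12.71 in SB165, 12.04 and 12.18 in SB169, 12.74 and 13.02 in SB10, 12.20 and 12.34 in SB62, 12.45 and 12.19 in SB109, 12.62 and 12.81 in SB69, 12.25 and 12.10 in SB57 and 12.51 and 12.88 in SB3. SB10 was high and SB169, SB57 and SB62 low, with line means 1.71-fold apart (adjusted p = 0.0403 by limma). This call held in 5 of the 16 fits that leave out 1 array (adjusted p up to 0.14 by limma) and was lost after centring on array medians and without the trend. Ta.4274.1.S1_at had 12.87 and 13.20 in SB165, 12.60 and 12.72 in SB169, 13.28 and 13.38 in SB10, 12.69 and 12.74 in SB62, 13.13 and 12.83 in SB109, 13.10 and 13.23 in SB69, 12.86 and 12.82 in SB57 and 13.23 and 13.30 in SB3. SB10 and SB3 were the high lines and SB169 and SB62 the low ones, with a 1.59-fold range (adjusted p = 0.0146 by limma). Ta.1465.1.S1_at had 13.04 and 13.30 in SB165, 12.85 and 12.86 in SB169, 13.30 and 13.32 in SB10, 12.83 and 12.78 in SB62, 13.15 and 13.17 in SB109, 13.17 and 13.39 in SB69, 12.87 and 12.90 in SB57 and 13.05 and 13.28 in SB3. SB10 and SB69 were high, both SB62 arrays lay below all others, and the range was 1.42-fold (adjusted p = 0.0343 by limma). It too was called in 5 of the 16 such fits (adjusted p up to 0.132 by limma) and not after centring or without the trend.

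The 2 remaining members had other orders of lines. Ta.1968.1.S1_at had log2 intensities of 12.16 and 12.14 in SB165, 12.09 and 11.85 in SB169, 12.54 and 12.71 in SB10, 12.48 and 12.37 in SB62, 12.48 and 12.42 in SB109, 12.43 and 12.41 in SB69, 12.38 and 12.54 in SB57 and 11.96 and 12.04 in SB3. Both SB10 arrays lay above all others, the lower of them (12.5411) only just above SB57 replicate 2 (12.5375). SB169, SB3 and SB165 formed a low group and the other 4 lines lay between, with a range of 0.66 log2 units or 1.57-fold (adjusted p = 0.00571 by limma). It was the only member called in all 16 fits that leave out 1 array, with adjusted p from 0.00558 to 0.0235 by limma. Ta.28553.7.S1_x_at had 12.74 and 12.62 in SB165, 12.52 and 12.51 in SB169, 12.21 and 12.37 in SB10, 12.27 and 12.21 in SB62, 12.37 and 12.24 in SB109, 12.58 and 12.72 in SB69, 12.20 and 12.35 in SB57 and 12.55 and 12.66 in SB3. SB165, SB69 and SB3 were high, SB62, SB57 and SB10 low, and the range of 0.44, or 1.35-fold, was the narrowest of the 8 (adjusted p = 0.0335 by limma). Its call held in 6 of the 16 fits (adjusted p up to 0.107 by limma) and was lost after centring and without the trend (up to 0.108).

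The order of lines was much alike in 6 of the 8, grouped after their values were seen by a Pearson r above 0.8 with Ta.5227.2.S1_at. Among tubb2, SAHH, Ta.5227.2.S1_at, Ta.812.4.S1_at, Ta.4274.1.S1_at and Ta.1465.1.S1_at, r over the 8 line means ran from 0.81 to 0.98, as a description of points that share the same arrays. In all 6, replicate 2 lay above replicate 1 in SB165, by 0.26 to 0.73 log2 units, in SB3, by 0.07 to 0.44, and also in SB69, by 0.14 to 0.36, in SB10, by 0.03 to 0.27, and in SB169, by 0.005 to 0.16. In SB62, SB109 and SB57 the sign differed between members. The calls of all 6 were kept in a fit with the replicate number as a block. The part of the difference between replicates in the result was not tested beyond that block and leaving out SB165 and SB3. Members most like Ta.5227.2.S1_at were Ta.2667.1.S1_at, Ta.1385.4.S1_x_at and COMT1, each with r = 0.99. Those most like tubb2 were Ta.4274.1.S1_at with r = 0.96, Ta.812.4.S1_at with 0.95 and Ta.1385.4.S1_x_at with 0.93. Those most like SAHH (Ta.1258.2.S1_x_at) were COMT1 and its own second probe set, each with 0.99, and Ta.2667.1.S1_at with 0.98.

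Without SB165 and SB3, a fit of the other 6 lines chosen after the data were seen called 21 members (10.5%), against 7.08% of all wheat probe sets. All 8 were among the 21. SB10 was the highest line in 14 of the 21 and the lowest in 3. The matching shares among all probe sets called in this fit are not given here. Both SAHH probe sets, COMT1, TUBA and tubb2 were the 5 with gene symbols: adjusted p by limma over 6 lines was 0.000283 and 0.000465 for SAHH, 0.00132 for COMT1, 0.0168 for TUBA and 3.98e-05 for tubb2. The pair of Ta.2789 was called too, highest in SB169 and lowest in SB10, with adjusted p = 0.00460 and 0.00875 by limma.

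Contrasts of a line against the mean over the remaining 7 called 4 members in at least 1 line (2%), against 4.17% of all wheat probe sets. tubb2 was higher in SB10 by 0.65 ± 0.14 log2 units (SE; adjusted p = 0.0222 by limma), and Ta.1968.1.S1_at by 0.36 ± 0.08 (adjusted p = 0.0334), where 1.18% of all probe sets were called higher. In SB62, Ta.5227.2.S1_at differed from the other lines by -0.67 ± 0.15 (adjusted p = 0.0383 by limma), where 1.13% of all were called lower. The fourth member, Ta.28209.1.S1_a_at, had 12.33 and 12.40 in SB165, 12.51 and 12.53 in SB169, 12.47 and 12.35 in SB10, 11.93 and 11.98 in SB62, 12.30 and 12.56 in SB109, 12.43 and 12.44 in SB69, 12.32 and 12.34 in SB57 and 12.27 and 12.48 in SB3. Both SB62 arrays lay below every other array, with a difference of means of -0.46 ± 0.08 log2 units (adjusted p = 0.00663 by limma), although the F-test over all lines was not passed (adjusted p = 0.0707). Ta.1968.1.S1_at was also lower in SB169, with a difference of -0.39 ± 0.08 (adjusted p = 0.0247 by limma; 0.455% of all called lower), and in SB3, with -0.36 ± 0.08 (adjusted p = 0.0449; 0.417%). The 8 comparisons share arrays and are not independent. The counts that follow, from fits that leave out 1 array, again stand without the share of all wheat probe sets called in the same fit. The 4 members became 2 without any 1 of the SB10 and SB62 arrays, 15 without either SB165 array, 19 without SB3 replicate 1 and 10 without SB3 replicate 2.

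Which line was highest or lowest, without regard to any test, was spread unevenly. SB62 was the highest line in 49 members (24.5%; 18.2% of all wheat probe sets) and SB169 in 39 (19.5%; 10.7%). SB69 was the highest in 16 (8%; 19.6%). SB3 was the lowest line in 48 members (24%; 19.9%). Only 8 members passed the test among lines, so the shares mostly describe differences that did not.

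The members fell into 130 clusters, a cluster being the part of the identifier before its second dot, of 45641 on the array. Probe sets of a cluster may read the same or closely related transcripts. A single member stood for 89 clusters, and 41 clusters held 2 or more, with 111 members between them: 24 held 2, 9 held 3 and 8 held 4 or 5. In 68 clusters every probe set on the array was a member, and 55 clusters have only 1 probe set. The clusters' other 354 probe sets were dimmer than the members by the rule.

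Probe sets of a cluster mostly shared their small differences over lines. The median Pearson r over the 8 line means, taken between the members of a cluster, had a median of 0.81 over the 41 clusters. It was above 0.5 in 31 clusters and below 0 in 3, Ta.28361, TaAffx.80290 and Ta.28553. These correlations are descriptions over 8 points from the same arrays. Some clusters hold 2 members with the same sequence number in their identifiers, such as Ta.2412.1.S1_at and Ta.2412.1.S1_x_at (r = 0.96). No r between members of different clusters is set beside these values.

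Of the 8 clusters with 4 or more members, Ta.20639, Ta.27457, Ta.27751 and Ta.659 had 5 each, of 6, 7, 9 and 8 probe sets on the array. Ta.1058, Ta.1282, Ta.28363 and TaAffx.128414 had 4 each, of 6, 5, 5 and 59. Of the 36 members of these 8 clusters, 0 passed limma's F-test after adjustment (1 had an unadjusted p under 0.05), and their ranges lay between 0.08 and 0.39 log2 units. Ta.659 holds TEF1, and its members averaged 12.23 to 13.09. Ta.1058 holds 2 members of the gene LOC543372 and was tightly alike, with r from 0.91 to 0.98. Ta.1282 holds LTP3, LOC100037539 and LOC778422, with r from 0.81 to 0.96, and all 4 members were highest in SB62 and lowest in SB109. Ta.27751 was not alike within itself, with r from -0.84 to 0.99 and ranges from 0.11 to 0.27.

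Cluster mates outside the members could be far dimmer. The fifth probe set of Ta.28363 had a mean log2 intensity of 3.19, against 12.36 to 13.44 in its 4 members. In TaAffx.128414 the members averaged 12.67 to 14.85, 1 of them rbcl, and the others 2.24 to 11.73.

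Clusters with a member that differed among lines show how far a call rests on the probe set. In Ta.5227 the other 2 members, Ta.5227.1.S1_at and Ta.5227.1.S1_x_at, were the sixth and the seventh brightest of all, with ranges of 0.16 and 0.13 and adjusted p = 0.811 and 0.865 by limma. Their r with Ta.5227.2.S1_at was 0.11 and -0.06. The remaining probe set of the cluster, Ta.5227.3.S1_a_at, stood just outside the members at 12.16, had r = 0.99 and a range of 1.41 (adjusted p = 0.00466 by limma). So 2 of the 4 probe sets of Ta.5227 differed among lines in the same order, and the brighter 2 did not pass.

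In Ta.812, all 5 probe sets were highest in SB10 and lowest in SB169, with r of 0.92 to 0.99 to Ta.812.4.S1_at. The F-test called Ta.812.4.S1_at and, outside the members, Ta.812.4.S1_x_at (range 0.76, adjusted p = 0.0224 by limma) and Ta.812.3.S1_x_at (range 0.71, adjusted p = 0.0464). In Ta.28553, with 15 probe sets, Ta.28553.7.S1_x_at was most like Ta.28553.7.S1_at (r = 0.97, range 0.69, adjusted p = 0.0127 by limma). The other member of that cluster, Ta.28553.6.S1_x_at, had r = -0.47, a range of 0.18 and adjusted p = 0.8497 by limma. The strongest call of the cluster, Ta.28553.4.S1_x_at outside the members, had another order of lines, highest in SB57 and lowest in SB3 (r = -0.41, range 1.16, adjusted p = 6.99e-06 by limma).

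The members' identifiers differed in kind from those of the whole array. The suffix _x_at, given by the array's maker to sets with probes that may bind unrelated transcripts, was carried by 82 members (41%), against 11.1% of all wheat probe sets. The suffix _a_at was carried by 26 (13%; 5.43%) and _s_at by 21 (10.5%; 4.28%). These mark sets shared by several transcripts of a gene or by transcripts of related genes. A plain _at ending was found in 71 (35.5%; 79.2%), and 34 members (17%; 48.6%) had identifiers of the TaAffx kind. Of the 8 members that differed, 6 had the plain ending and 2 were _x_at, and 0 of the 47 with _s_at or _a_at passed limma's F-test (5 had an unadjusted p under 0.05). Over all wheat probe sets of any ending 3.99% passed and 15.2% had an unadjusted p under 0.05. The 0 of 47 is therefore not read as a trait of these endings. The median range was similar across the endings, 0.22 for _at and for _a_at, 0.23 for _x_at and 0.26 for _s_at. For the 129 members without a plain ending, a value may sum near-identical copies, since bread wheat carries most genes in related copies on its A, B and D genomes.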

How the data were processed

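Transcript levels of 16 wheat stem samples, 2 field replicates of each of 8 lines, were measured on Affymetrix wheat arrays. The authors deposited a normalized intensity value for each probe set on each array, and these were used. The submitters' processing notes name GCOS and RMA, without versions or order. RMA, a method that adjusts background, equalises distributions across arrays and summarises probes, normally gives log2 values, but the deposited intensity values are linear, judging by their range. The step that made them linear is not stated. Probe-level and scanner values were not analysed here, so saturation of bright probes and sequence differences under probes were not examined.

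Values were floored at 1 and converted to log2. Control and reporter probe sets (174 of 61289) were left out. Members are the 200 wheat probe sets with the highest mean. Lines were compared with limma 3.58.1 (R 4.3.3) on all 61115 wheat probe sets with 1 mean per line, eBayes with an intensity trend (6.77 prior and 8 residual degrees of freedom), a moderated F-test and contrasts of each line against the mean of the other 7. P-values were adjusted by Benjamini-Hochberg over all wheat probe sets, with a threshold of 0.05. The script was tested on simulated data.

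Gene symbols came from GEO's platform annotation, which gave 1 symbol to 1273 probe sets and several to 0. Of these, 1272 matched RefSeq's gene table (IWGSC CS RefSeq v2.1). Gene lists could be matched by symbol or synonym only, since the tables hold no gene titles. The planned photosynthesis list named the small Rubisco subunit and chlorophyll a/b-binding proteins, and no probe set could be matched to either. Genes such as rbcl, PRK and Trx-M stand in that list although the plan did not name them. For the planned actins, ubiquitin and metallothioneins no counts are given. Probe sets were named by rule: the 5 brightest, those at the limit of 200, the 2 narrowest and 2 widest ranges, members called by the F-test, clusters with 4 or more members, members on gene lists, and those most like the 3 called members of widest range. The members and lists were chosen with earlier results of these data known.

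Alternatives covered normalization, filters, the spread model, the size and choice of the member list, and leaving out each array. Field replicate numbers were not taken as pairs in the main fit. Same-numbered arrays of 2 lines deviated together with r over 0.1 in 14 of 28 pairs of lines (median r 0.11, from -0.29 to 0.54). Whether the numbers mark a shared block is not settled by this, and a fit with the block is among the alternatives.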

Additional observations from a re-analysis of the deposited data

Results flagged for a closer look

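The brightest reporter probe set, which the comparisons above leave out, had a mean log2 intensity of 13.85, between 13.64 and 14.04 over the 16 arrays, and is listed here because it is signal outside the wheat probe sets. In all, 11 control or reporter probe sets lay above the level of the last member, 1 of them a reporter, 2 named for ubiquitin, 6 for cre and 2 for bioD. Lines of 2 arrays are too few for a search for single arrays far from their group.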

How the results depend on the processing

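The count of 8 members that differed among lines became 13 with the replicate number as a block, 13 with array weights, 4 after centring on array medians, 4 without the intensity trend, 1 at an adjusted p under 0.01, 2 among the 100 brightest, 30 among the 400 brightest and 21 without SB165 and SB3, which was chosen after the data were seen. Leaving out 1 array gave 1 to 16. With the block, 4.78% of all wheat probe sets were called, beside the 13 of 200 members, and without SB165 and SB3 it was 7.08%. The lists of the 100 and 400 brightest use the main fit, where 3.99% of all were called. For the remaining fits the share of all is not given here. Their counts, here and for the contrasts, are therefore not read as changes particular to the members. The 1 member with line means at least 2-fold apart became 2 with quantile normalization, centring, choice by the median or choice on the replicate 2 arrays, 0 at an adjusted p under 0.01, among the 100 brightest or by choice on the replicate 1 arrays, 10 among the 400 brightest and 3 without SB165 and SB3, with 0 to 3 on leaving out 1 array. The 4 members called in any line against the others became 9 with the block, 9 with array weights, 7 with a filter on dim probe sets, 2 without the trend, 1 at an adjusted p under 0.01, 0 among the 100 brightest, 17 among the 400 brightest and 24 without SB165 and SB3, with 2 to 19 on leaving out 1 array. By construction of the list, the 130 clusters became 66 among the 100 brightest, 270 among the 400 brightest and 67 without the suffixes _x_at, _s_at and _a_at, and the 20.2% of summed intensity became 13.3%, 28.5% and 13.0%. For the other changes the cause was not tested. The median range of line means moved by less than the median SD between replicates under every alternative run. That SD belongs to single probe sets and is a wide measure for a median over 200, so no steadiness is read from it. Of the 8 members, 5 were called in at least 8 of the 16 fits that leave out 1 array, and 19 members were called in at least 1 of them. Ta.1968.1.S1_at alone was called in every fit, leave-one-out or other.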
